A study of Mus musculus with 8 samples.

Results

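Nuclear receptors are transcription factors that bind small lipophilic molecules, and this account covers 39 genes of that system in mouse liver, 32 receptors and 7 coregulators. On the array 22180 genes had a transcript cluster of their own, 37 of these 39 among them. The members form a fixed list of gene symbols. A gene was represented by a transcript cluster (a set of probes summarised as 1 value) annotated with that 1 symbol, and by the brightest one where there were several. In this way 37 members were measured, 31 receptors and 6 coregulators, while Nr1h2 and Ncor1 had no such cluster and were not analysed here. The livers came from 5 Abhd15 KO mice and 3 wild-type (WT) mice, all male, on the C57BL/6J background, fed normal chow, and sampled at 14 weeks of age after an overnight fast and 1 hour of refeeding. Abhd15 belongs to the family of proteins with an alpha/beta hydrolase fold. The labels describe each array as the liver of a mouse but give no animal identifiers, and they give neither the design of the deletion nor the cells it was made in. The p-values therefore measure the spread between these samples, part of which may be technical.

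In hepatocytes, receptors for bile acids (FXR, gene Nr1h4), oxysterols (LXR alpha, Nr1h3), fatty acids (PPARA), foreign compounds (PXR, Nr1i2, and CAR, Nr1i3), glucocorticoids (Nr3c1) and thyroid hormone (Thrb) adjust lipid, bile acid and glucose metabolism to the metabolites they sense. Many of them bind DNA in pairs with RXR, the retinoid X receptor, most often at repeats of a short core element. Coactivators such as the Ncoa proteins and the Mediator subunit Med1 link a ligand-bound receptor to transcription, whereas corepressors such as Nrip1 oppose it. Several receptors are themselves controlled at the RNA level, and Nr0b2 (SHP), a receptor without a DNA-binding domain, is a classical target of FXR and LRH-1 (Nr5a2) that in turn represses bile acid synthesis.

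Each liver was read on 1 Mouse Gene 2.0 ST array, and values are log2 expression. The deleted gene read lower in KO livers, where Abhd15 averaged 5.12 ± 0.0775 (SD, n = 5) against 5.64 ± 0.176 in WT livers (SD, n = 3), with an exact two-sided permutation p of 0.0179, the smallest that 56 splits can give. In limma's fit across all genes its adjusted p was 0.795, and a second, dimmer Abhd15 cluster averaged 3.16 ± 0.471 in KO livers and 3.84 ± 0.681 in WT livers with overlapping arrays (exact two-sided permutation p = 0.1607). Of the hepatocyte markers, 10 of 10 were measured, with list means of 10.84 to 11.12 in KO arrays and 10.99 to 11.05 in WT arrays, and 1 of them, Ass1, was dim at a mean of 4.14. KO arrays 1 and 2 stood apart on the first principal component of all single-symbol clusters, which held 22.1% of the variance (35.7 and 32.1, the next array at 0.661), and KO array 4 stood apart on the second, at 41.8 against 4.16. Differences are therefore also given without KO arrays 1 and 2 where that turned the direction or moved the value by over 1.5 times. This holds for every member, and for other genes where a difference is printed. In bulk liver, fewer cells of a type and less RNA per cell cannot be told apart.

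Promoters are printed here for the 4 receptors with the most negative KO minus WT differences, leaving out Vdr, the dimmest member. Each is the 250 bases before the annotated transcription start (RefSeq, GRCm38.p6), and its part in the array values was not tested. Capitals mark the nuclear receptor core element AGGTCA on either strand.
Nr0b2 (chr4:133553126-133553375, plus strand): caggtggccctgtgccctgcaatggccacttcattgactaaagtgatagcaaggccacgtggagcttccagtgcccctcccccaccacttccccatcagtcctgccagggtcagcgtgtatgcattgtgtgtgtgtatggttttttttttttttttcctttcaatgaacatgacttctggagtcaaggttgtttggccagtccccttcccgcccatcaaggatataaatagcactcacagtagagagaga
Nr1i3 (chr1:171213720-171213969, plus strand): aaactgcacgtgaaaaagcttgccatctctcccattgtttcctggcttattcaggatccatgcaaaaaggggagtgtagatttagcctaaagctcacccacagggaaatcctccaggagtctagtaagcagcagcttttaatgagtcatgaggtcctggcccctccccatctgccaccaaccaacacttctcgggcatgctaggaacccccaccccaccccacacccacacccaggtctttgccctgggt
Nr2f2 (chr7:70366747-70366996, minus strand): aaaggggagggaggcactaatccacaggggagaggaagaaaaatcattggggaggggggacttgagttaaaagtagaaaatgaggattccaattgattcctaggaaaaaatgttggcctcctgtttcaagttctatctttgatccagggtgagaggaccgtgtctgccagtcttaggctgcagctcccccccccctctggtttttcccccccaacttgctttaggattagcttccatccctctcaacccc
Nr1h4 (chr10:89506659-89506908, minus strand): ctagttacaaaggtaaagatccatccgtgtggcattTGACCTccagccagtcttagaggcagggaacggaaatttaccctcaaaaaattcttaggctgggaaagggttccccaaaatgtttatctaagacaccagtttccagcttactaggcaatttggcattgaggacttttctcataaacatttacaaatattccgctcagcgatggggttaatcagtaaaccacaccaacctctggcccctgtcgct
Among the 4 windows only that of Nr1h4 held the core element, on the reverse strand, 214 bases before the start. RefSeq windows were found for 32 of the 37 measured members, 52 windows in all, and 9 of them (17.3%) held the core element, against 14.0% of 32851 windows of all genes. The longer element CAAGGTCA, a form LRH-1 and the estrogen-related receptors are known to bind, was in 0 of the 52 windows and in 1.33% of all windows. The direct repeat of AGGTCA spaced by 1 base, the direct repeat spaced by 4 bases and the inverted repeat spaced by 1 base were in 0 of the 52 windows too, and in 0.0335%, 0.0152% and 0.0061% of all windows. Each was searched on both strands, and the core element is contained in every other element. Only the exact letters were counted, so a window without them may still hold a variant of the element. It also says nothing of what the factor binds elsewhere.

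Receptor means ran from 1.92 to 9.03 on an array whose values ran from 0.409 to 13.27. Among the listed receptors Rxra, the shared partner of many of the others, was the brightest, followed by Nr1i3, Nr5a2, Ppara and Nr1h4. Hnf4a, a nuclear receptor outside the list, was brighter than Rxra, with a mean of 10.1. Of the 31 receptors, 20 had a mean over all arrays of at least 5, while 11 lay below. That value served as a filter only, since no detection calls were used, and members below it are called dim here. The order is one of array signal, which depends on the probes as well as on the RNA, and its steps were small. Of the 30 pairs of neighbours in this order, the arrays of 1 pair were fully apart and all others overlapped. Between the order in KO livers and that in WT livers no receptor moved by more than 2 places, and 12 of 31 kept their place.

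**Figure D1:**
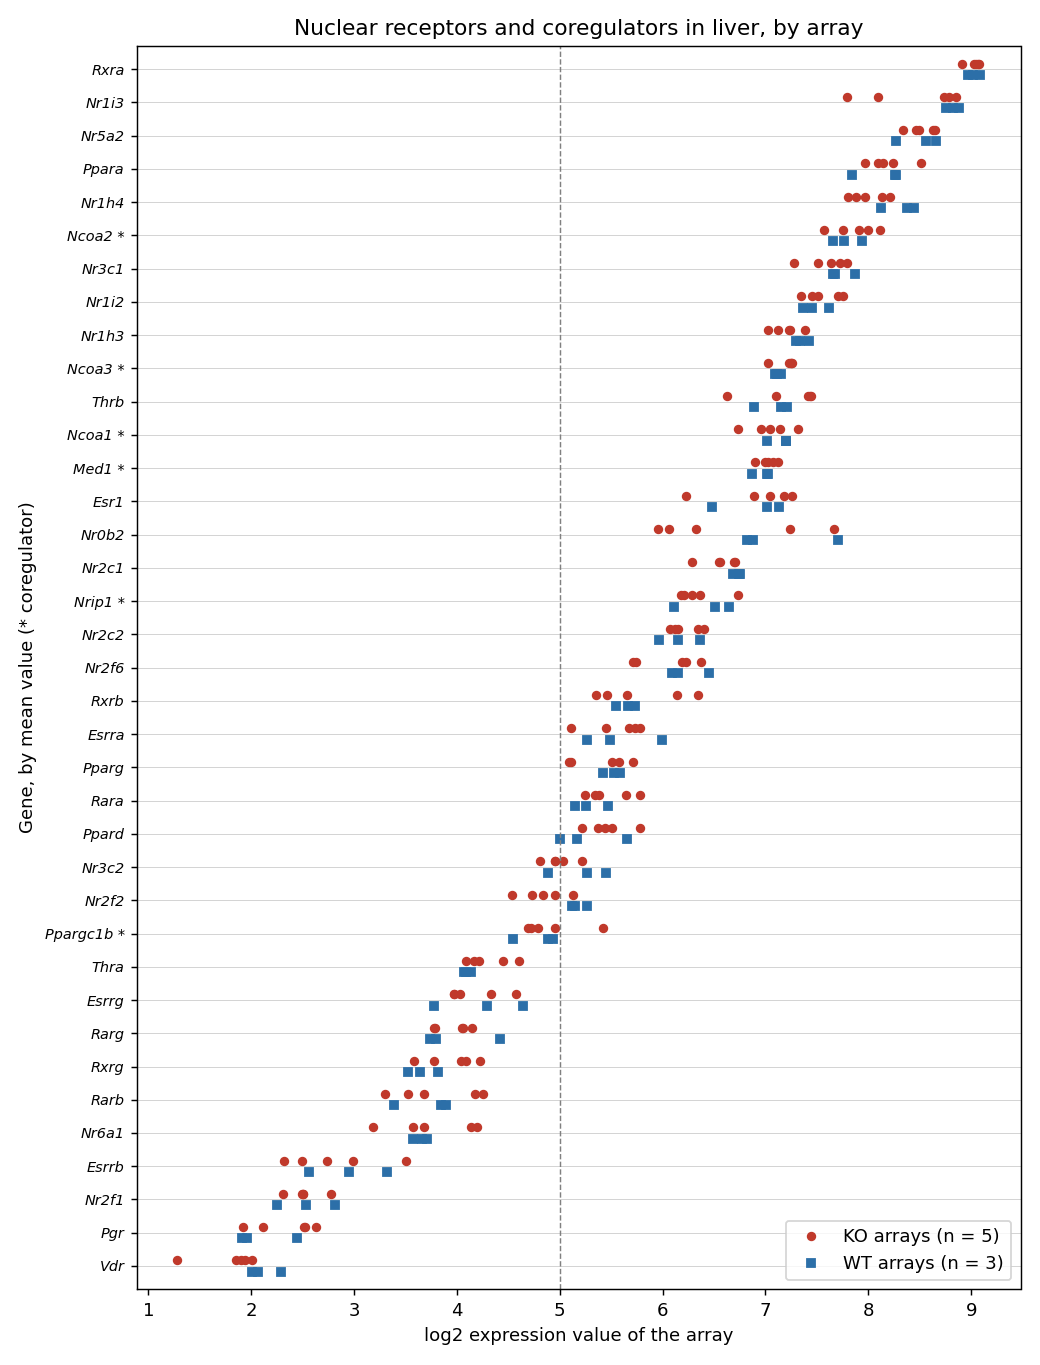
Log2 expression value (x axis) of each measured receptor and coregulator in each array, ordered by mean, with KO arrays as circles above WT arrays as squares and a dashed line at a value of 5. Of these listed genes Rxra leads at about 9.03 and Vdr is lowest at 1.92, and in each of the 37 the KO and WT arrays overlap.

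No receptor or coregulator differed between KO and WT livers by the test across all genes. In limma's fit of 23521 single-symbol clusters, 0 passed an adjusted p of 0.05 (0% of clusters), so that 0 members passed, and 1429 clusters had an unadjusted p under 0.05. The smallest adjusted p of a member was 0.82. At an unadjusted p under 0.05 there was 1 member of 37, Nr2f2, where 6.08% of all clusters did so. In 0 of the 37 members were the KO and WT arrays fully apart, against 4.43% of all clusters. Of the members, 19 were higher and 18 lower in the KO mean, where 49.6% of all clusters were higher, with a median log2 difference of 0.0021 (-0.0018 over all clusters) and a median size of difference of 0.12 (0.13 over all clusters).

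The intervals show what size of difference these arrays leave possible. The log2 differences ran from -0.49 (Nr0b2) to 0.28 (Rxrg), and 31 of 37 were smaller than 0.25 in size. The 95% interval of the difference lay within 0.5 of 0 on the log2 scale for 17 members and within 1 for 36, the exception being Nr0b2. A failed test here does not show equal expression.

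**Figure D2:**
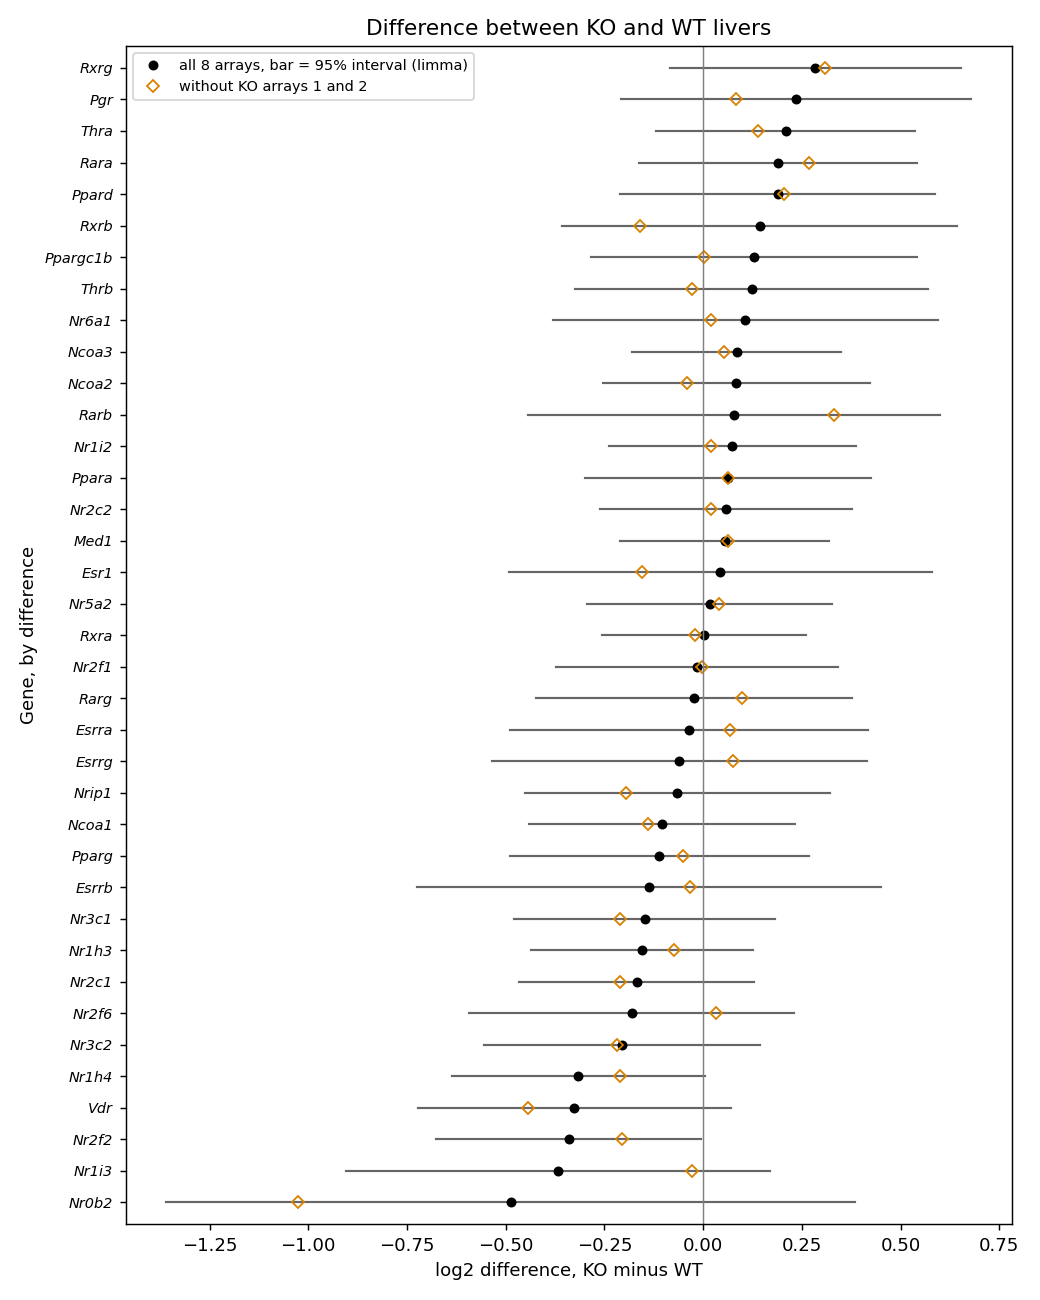
Log2 difference, KO minus WT, of each member (filled circles, all 8 arrays) with limma's 95% interval as a bar, and the same difference without KO arrays 1 and 2 (open diamonds). Only the bar of Nr2f2 leaves out 0, narrowly, and the largest step between circle and diamond is that of Nr0b2, at -0.49 with all arrays and -1.03 without the pair.

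Of Nr0b2, Nr1h4, Nr5a2 and Nr1h3, grouped here for bile acid and sterol control, 3 of 4 were lower in the KO mean. Nr0b2 read 7.24, 7.67, 6.32, 5.95 and 6.06 in KO arrays 1 to 5, against 6.82, 6.88 and 7.71 in WT arrays 1 to 3. KO arrays 1 and 2 thus lay within the range of the WT arrays, whereas KO arrays 3, 4 and 5 lay below every WT array. The difference was -0.49 (SE 0.394, limma adjusted p = 0.892) over all arrays and -1.03 (SE 0.248, limma adjusted p = 0.797) without KO arrays 1 and 2. Neither passed, and with the pair left out 11.6% of all clusters had their groups apart. Nr0b2 also had the largest SD of all measured members among the KO arrays (0.764, against 0.494 in WT).

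Nr1h4, the bile acid receptor FXR and an activator of Nr0b2, read 7.88, 7.80, 7.97, 8.21 and 8.13 in KO arrays, against 8.37, 8.13 and 8.44 in WT arrays. WT array 2 overlapped the KO arrays, and the other WT arrays lay above all of them. The difference was -0.32 (SE 0.145), with a 95% interval of -0.64 to 0.0045, an adjusted p of 0.83 by limma, and a value of -0.21 without KO arrays 1 and 2. Nr5a2, which encodes LRH-1, the other activator of Nr0b2, read 8.46, 8.49, 8.63, 8.65 and 8.34 in KO arrays, against 8.27, 8.56 and 8.66 in WT arrays. The KO arrays all lay within the WT range, and the difference was 0.017 (SE 0.14), or 0.041 without KO arrays 1 and 2. Nr1h3, the oxysterol receptor LXR alpha, averaged 7.20 ± 0.132 in KO livers and 7.35 ± 0.0633 in WT livers, a difference of -0.15 (SE 0.127), or -0.073 without KO arrays 1 and 2.

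Known targets of FXR and LXR lay on both sides of 0. Nr0b2, itself an FXR target and lower in the KO mean, is left out of the FXR count. Of 10 measured FXR targets, 4 were higher and 6 lower, with 0 past the threshold and a median difference of -0.0041, beside -0.0018 over all clusters. Fetub, encoding the plasma protein fetuin-B, had the smallest p of them, with a difference of 0.23 (SE 0.131), and Slc51a, a subunit of a bile acid exporter, one of -0.19 (SE 0.148) at a dim mean of 2.04. Of 15 LXR targets, 9 were higher and 6 lower, again with 0 past the threshold, and the median was 0.028, or -0.020 without KO arrays 1 and 2. Cyp7a1, which catalyses the rate-limiting step of the classical route to bile acids and in mice is activated by LXR and LRH-1 and repressed through SHP, averaged 9.54 ± 0.199 in KO livers and 10.3 ± 0.36 in WT livers. Its KO arrays all lay below its WT arrays, and the difference was -0.76 (SE 0.183, limma adjusted p = 0.795). Apoe, an apolipoprotein of lipid transport, had a difference of -0.23 (SE 0.178), or -0.14 without the pair.

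Of 4 enzyme genes of bile acid synthesis known to be held down through SHP, Cyp7a1 included, 2 were higher and 2 lower. Cyp7b1, an oxysterol hydroxylase, averaged 9.25 ± 0.392 in KO livers and 8.77 ± 0.147 in WT livers, a difference of 0.48 (SE 0.214). Among 5 measured LRH-1 targets, 2 were higher and 3 lower, with a median of -0.22 over all arrays and -0.17 without KO arrays 1 and 2. The 3 lower were Nr0b2 and the 2 lower enzyme genes above, Cyp7a1 and Cyp8b1. Both medians are the value of Cyp8b1. Plk3, a stress-responsive kinase, read 8.76 and 8.86 in KO arrays 1 and 2 and 7.09 to 7.23 in the other KO arrays, against 6.44 to 6.99 in WT arrays. Its difference was 1.14 (SE 0.428) over all arrays and 0.49 without KO arrays 1 and 2.

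Of the xenobiotic sensors, with Vdr placed beside them, 1 of 3 was higher and 2 were lower in the KO mean. Nr1i3, which encodes CAR, the receptor for phenobarbital-like inducers, read 7.79 and 8.09 in KO arrays 1 and 2, and 8.78, 8.73 and 8.85 in KO arrays 3 to 5, against 8.75, 8.88 and 8.82 in WT arrays. The first pair lay below all other arrays, and the remaining KO arrays overlapped the WT arrays. The difference was -0.37 (SE 0.243, limma adjusted p = 0.873) over all arrays and -0.029 (SE 0.14, limma adjusted p = 0.99) without the pair. Nr1i2, the pregnane X receptor PXR, averaged 7.55 ± 0.172 in KO livers and 7.48 ± 0.128 in WT livers. Its difference was 0.074, or 0.021 without the pair. Vdr, the vitamin D receptor, was the dimmest member, at 2.01, 1.94, 1.91, 1.85 and 1.28 in KO arrays, against 2.29, 2.01 and 2.07 in WT arrays. The difference of -0.33 (SE 0.179) is that of a dim cluster.

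CAR and PXR share most targets, and of 16 measured 13 were higher and 3 lower, with a median difference of 0.097 and 0 past the threshold. At an unadjusted p under 0.05, 2 were higher, where 2.75% of all clusters were. Slco1a4, an organic anion transporter, averaged 10.4 ± 0.162 in KO livers and 9.93 ± 0.0993 in WT livers, and each KO array lay above each WT array (difference 0.43, SE 0.136). Cyp2c55, a cytochrome P450, was dim, with a mean of 4.55 and overlapping groups, and 4 of the 16 targets averaged below 5. Its difference was 0.82 (SE 0.294), or 0.65 without KO arrays 1 and 2. Cyp2b10, the best-known CAR target and named here after its values were seen, read 5.27, 5.34, 5.92, 8.11 and 8.66 in KO arrays, against 8.12, 6.84 and 5.18 in WT arrays. It was low in both KO livers with low Nr1i3 and also in KO array 3 and WT array 3, where Nr1i3 read 8.78 and 8.82.

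**Figure D3:**
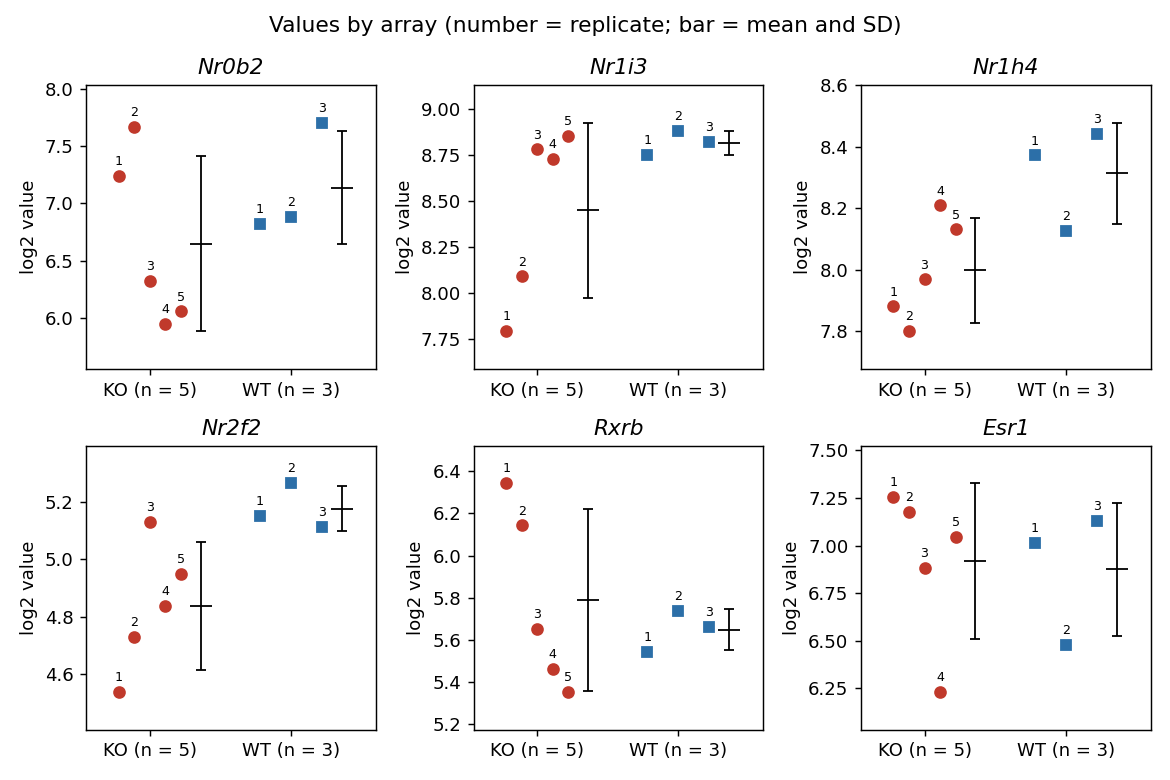
Log2 values by array for 6 receptors, with KO arrays left of WT arrays, the replicate number above each point, and the mean with its SD as a bar. KO arrays 1 and 2 lie below all other arrays in Nr1i3, Nr1h4 and Nr2f2 and above all others in Rxrb and Esr1, while in Nr0b2 the other KO arrays are the low ones.

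Of the 3 fatty acid receptors, 2 were higher and 1 lower in the KO mean, and the groups overlapped in each. Ppara, the receptor that drives fat oxidation during fasting, read 8.14, 8.24, 8.51, 8.09 and 7.96 in KO arrays, against 8.26, 8.27 and 7.84 in WT arrays. The highest reading was a KO array and the lowest a WT array, and the difference was 0.063 (SE 0.164), with a 95% interval of -0.30 to 0.43. Ppard, its widely expressed relative, read 5.51, 5.37, 5.78, 5.22 and 5.44 in KO arrays, against 5.65, 5.00 and 5.16 in WT arrays, a difference of 0.19 (SE 0.18). Pparg, best known from fat cells, averaged 5.40 ± 0.285 in KO livers and 5.51 ± 0.0801 in WT livers. Its difference was -0.11, or -0.051 without KO arrays 1 and 2. The adipocyte markers, of which 5 of 6 were measured and 3 averaged below 5 (Adipoq at 2.66 among them), had list means of 4.07 to 4.77 in KO arrays and 4.07 to 4.92 in WT arrays.

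Known targets of PPARA read mostly lower in the KO livers. Of 22 measured, 17 were lower and 5 higher, and 0 passed the adjusted threshold. The median log2 difference was -0.24 against -0.0018 over all clusters. Hadhb and Fgf21, both among the lower targets, were dim, at means of 3.43 and 4.70. At an unadjusted p under 0.05, 9 were lower and 0 higher, where 3.32% of all clusters were lower, and in 8 the KO arrays all lay below the WT arrays, where 2.44% of all clusters did so. Acot3, a peroxisomal acyl-CoA thioesterase, read 5.14, 5.65, 5.85, 5.44 and 5.94 in KO arrays, against 7.78, 6.78 and 6.77 in WT arrays (difference -1.50, SE 0.26, limma adjusted p = 0.376). Vnn1, a pantetheinase, averaged 8.33 ± 0.317 in KO livers and 9.16 ± 0.179 in WT livers (difference -0.83, SE 0.189). The list's median was -0.22 without KO arrays 1 and 2. Acot3 and Vnn1 were already known to read lower in these livers when the list was drawn up, so that its direction is no independent evidence.

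**Figure D4:**
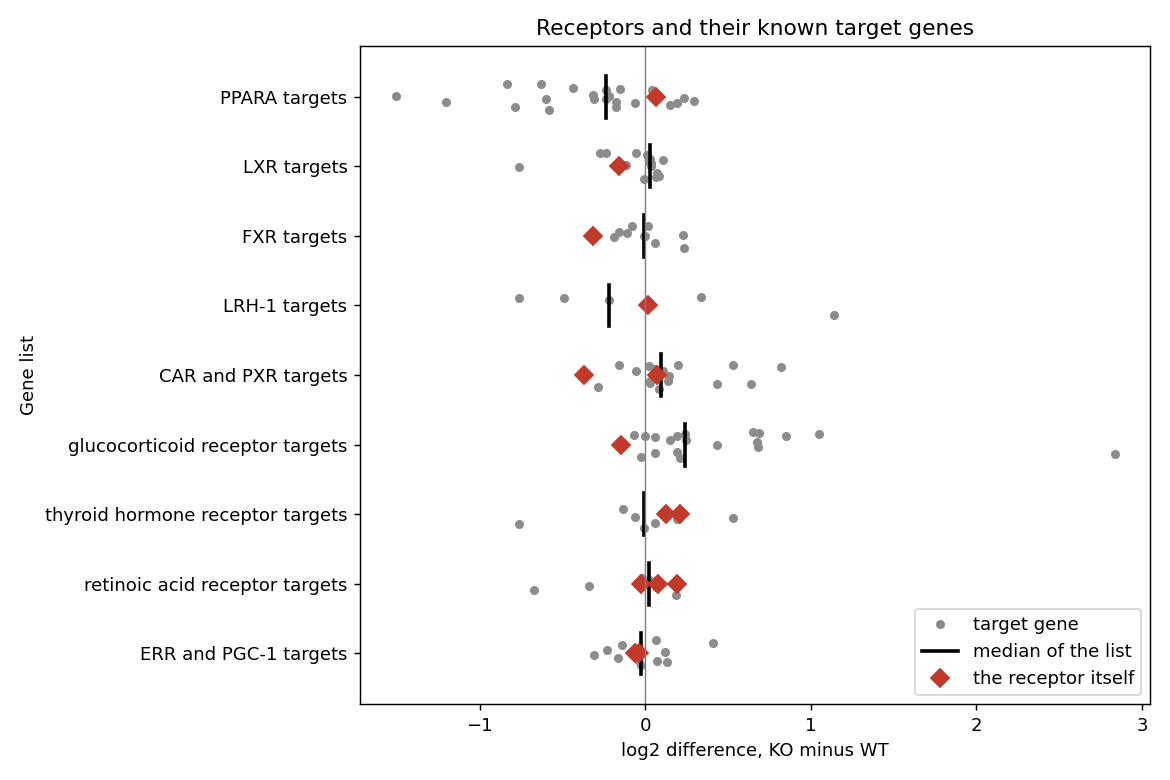
Log2 difference, KO minus WT, of the known targets of 9 groups of receptors (grey points), the median of each list (black bar) and the receptors themselves (red diamonds). The PPARA targets have a median of -0.24 beside 0.063 for Ppara, and the glucocorticoid targets one of 0.24 beside -0.15 for Nr3c1. Of the measured estrogen-related receptors, Esrrb has no diamond.

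All 3 RXR genes were higher in the KO mean, although Rxra and Rxrb turned lower, at -0.020 and -0.16, without KO arrays 1 and 2. Rxra read 9.07, 9.05, 9.08, 8.91 and 9.02 in KO arrays, against 8.96, 9.09 and 9.02 in WT arrays. It had the smallest KO spread of all members (SD 0.0686) and a difference of 0.0021 (SE 0.117). Rxrb read 6.34, 6.14, 5.65, 5.46 and 5.35 in KO arrays, against 5.54, 5.74 and 5.66 in WT arrays. KO arrays 1 and 2 lay above all others and KO arrays 4 and 5 below all others. The difference was 0.14 (SE 0.226). Rxrg, known mainly from muscle and brain, was dim, at 3.59, 4.22, 4.04, 3.78 and 4.09 in KO arrays, against 3.64, 3.52 and 3.82 in WT arrays, a difference of 0.28 (SE 0.167, adjusted p = 0.858 by limma).

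Of the retinoic acid and thyroid hormone receptors, 4 of 5 were higher in the KO mean and 0 passed, and Thrb turned lower, at -0.029, without KO arrays 1 and 2. Rara, a retinoic acid receptor, read 5.34, 5.38, 5.78, 5.65 and 5.24 in KO arrays, against 5.15, 5.47 and 5.25 in WT arrays, a difference of 0.19 (SE 0.159). Thra, the thyroid hormone receptor alpha, read 4.61, 4.21, 4.09, 4.17 and 4.45 in KO arrays, against 4.13, 4.09 and 4.06 in WT arrays. Only KO array 3 overlapped the WT arrays, and the difference was 0.21 (SE 0.148) at a mean of 4.23. Thrb, the main thyroid hormone receptor of liver, averaged 7.20 ± 0.354 in KO livers and 7.08 ± 0.173 in WT livers, with KO array 5 lowest at 6.63. Rarb and Rarg were dim, with differences of 0.079 and -0.022, or 0.33 and 0.099 without the pair.

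Of 7 measured thyroid hormone targets, 3 were higher and 4 lower, with a median of -0.0061, which became 0.18 without KO arrays 1 and 2. Besides Cyp7a1, the smallest p was that of Thrsp, a lipogenic regulator, with a difference of 0.53 (SE 0.388), or 0.80 without the pair. Of 7 retinoic acid targets, 4 were higher and 3 lower. Cyp26a1, which degrades retinoic acid, was dim and averaged 4.29 ± 0.453 in KO livers and 4.96 ± 0.318 in WT livers. Its difference was -0.67 (SE 0.253), or -0.43 without the pair. Lrat, which stores retinol as esters in stellate cells, averaged 6.45 ± 0.172 in KO livers and 6.79 ± 0.0572 in WT livers, and its KO arrays all lay under its WT arrays (difference -0.34, SE 0.136).

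Of the steroid receptors, 2 of 4 were higher in the KO mean, and 1 of these, Esr1, turned lower, at -0.15, without KO arrays 1 and 2. Nr3c1, the glucocorticoid receptor, averaged 7.59 ± 0.206 in KO livers and 7.74 ± 0.119 in WT livers, a difference of -0.15 (SE 0.149). Esr1, the estrogen receptor alpha, averaged 6.92 ± 0.409 in KO livers and 6.88 ± 0.348 in WT livers, with the lowest reading, 6.23, in KO array 4. Nr3c2, the mineralocorticoid receptor, was the 1 member with 2 clusters of its own symbol. The brighter gave a difference of -0.20 (SE 0.158), and the dimmer kept that direction. Pgr, the progesterone receptor, was dim, at 2.63, 2.52, 2.52, 1.92 and 2.12 in KO arrays, against 2.44, 1.96 and 1.91 in WT arrays (difference 0.24, SE 0.2), and its difference was 0.082 without the pair.

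Glucocorticoid targets lay mostly higher in the KO mean, and most of all in KO arrays 1 and 2. Of 19 measured, 16 were higher and 3 lower, with a median difference of 0.24 and 0 past the threshold, and 6 were higher at an unadjusted p under 0.05, where 2.75% of all clusters were. Averaged over the list, KO arrays 1 and 2 read 8.67 and 8.35, with 7.70 to 7.80 in the remaining KO arrays, against 7.36 to 7.70 in WT arrays, and the median difference was 0.11 without the pair. Mt2, a metallothionein, averaged 11.1 ± 0.463 in KO livers and 10.2 ± 0.192 in WT livers (difference 0.85, SE 0.244). Per1, a clock gene that glucocorticoids induce, averaged 7.24 ± 0.212 in KO livers and 6.59 ± 0.431 in WT livers (difference 0.65, SE 0.2). The largest difference was that of Igfbp1, at 2.83 (SE 0.985), or 1.35 without the pair. The 3 lower targets were Zbtb16 (-0.068), Sgk1 (-0.026) and Fkbp5 (-0.0033), or -0.48, -0.26 and -0.12 without the pair. Mt2 and Per1 were known to read higher in these livers before the list was drawn up, so that its direction is no independent evidence.

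The estrogen-related receptors, orphan relatives that support mitochondrial genes, were all 3 lower in the KO mean, but Esrra and Esrrg turned higher, at 0.069 and 0.075, without KO arrays 1 and 2. Esrra averaged 5.55 ± 0.277 in KO livers and 5.58 ± 0.374 in WT livers. Esrrb read 2.32, 2.99, 3.51, 2.73 and 2.49 in KO arrays, against 2.56, 2.95 and 3.32 in WT arrays. Its difference was -0.14, or -0.033 without KO arrays 1 and 2. Esrrg averaged 4.18 ± 0.268 in KO livers and 4.24 ± 0.436 in WT livers. Of 11 measured targets of the ERR and PGC-1 proteins, 5 were higher and 6 lower, with a median of -0.025, or 0.081 without KO arrays 1 and 2. Acadm, the medium-chain acyl-CoA dehydrogenase, is also a PPARA target and averaged 10.8 ± 0.106 in KO livers and 11.1 ± 0.0648 in WT livers (difference -0.31, SE 0.122, KO arrays all below WT arrays). Slc25a4, a mitochondrial ADP/ATP carrier, had a difference of 0.41 (SE 0.218) at a mean of 4.22. Among 5 vitamin D receptor targets, all dim, Cyp24a1 and Trpv6 had differences of 0.51 (SE 0.157) and 0.24 (SE 0.25), the second 0.096 without KO arrays 1 and 2.

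Of 6 orphan receptors, 4 were lower in the KO mean. Nr2f2, which encodes COUP-TFII, a regulator of venous endothelium and of hepatocyte metabolism, read 4.54, 4.73, 5.13, 4.84 and 4.95 in KO arrays, against 5.15, 5.27 and 5.11 in WT arrays. KO array 3 alone overlapped the WT arrays, and the overall mean, 4.96, was just under the filter of 5. The difference was -0.34 (SE 0.152, limma adjusted p = 0.82), or -0.21 without KO arrays 1 and 2, and its 95% interval ran from -0.68 to -0.0048. The sinusoidal endothelial markers, 8 of 8 measured, had list means of 7.25 to 7.39 in KO arrays and 7.25 to 7.34 in WT arrays, with 3 higher and 5 lower, and the stellate cell markers, 10 of 10 measured, had means of 5.06 to 5.44 in KO arrays and 5.19 to 5.39 in WT arrays. Their part in the value of Nr2f2 was not tested.

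Nr2f6, a relative of Nr2f2, read 5.74 and 5.71 in KO arrays 1 and 2 and 6.18 to 6.37 in the other KO arrays, against 6.09 to 6.45 in WT arrays, a difference of -0.18 (SE 0.186) that became 0.033 without the pair. Nr2c1 and Nr2c2, the paired testicular receptors, had differences of -0.17 (SE 0.135) and 0.058 (SE 0.144), the second 0.019 without the pair. Nr6a1, the germ cell nuclear factor, was dim and spread widely, at 3.57, 4.197, 3.68, 3.19 and 4.14 in KO arrays, against 3.67, 3.71 and 3.57 in WT arrays. Its difference was 0.11, or 0.021 without KO arrays 1 and 2. Nr2f1 was near the floor in both groups, with a mean of 2.52 and a difference of -0.015, or -0.0033 without that pair.

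Of the 6 coregulators, 4 were higher and 2 lower in the KO mean, and 0 passed, and Ncoa2 turned lower, at -0.040, without KO arrays 1 and 2. Ncoa2, a steroid receptor coactivator, read 8.11, 8.0, 7.91, 7.76 and 7.57 in KO arrays, against 7.94, 7.76 and 7.66 in WT arrays, a difference of 0.084 (SE 0.153). Ncoa3 read 7.25, 7.25, 7.22, 7.03 and 7.26 in KO arrays, against 7.10, 7.15 and 7.11 in WT arrays. KO array 4 lay below all WT arrays and the other KO arrays above them, and the difference was 0.085 (SE 0.12), or 0.053 without KO arrays 1 and 2. Ncoa1 read 7.14, 7.04, 6.95, 6.73 and 7.32 in KO arrays, against 7.20, 7.20 and 7.01 in WT arrays, a difference of -0.10 (SE 0.152).

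Med1, the Mediator subunit that docks many receptors, averaged 7.02 ± 0.0834 in KO livers and 6.97 ± 0.0852 in WT livers. Nrip1, a corepressor active in metabolic tissues, averaged 6.35 ± 0.225 in KO livers and 6.42 ± 0.279 in WT livers. Its difference was -0.065, or -0.195 without KO arrays 1 and 2. Ppargc1b, the coactivator PGC-1 beta, averaged 4.92 ± 0.299 in KO livers and 4.79 ± 0.211 in WT livers, with KO array 2 highest at 5.42. Its difference was 0.13, or 0.0023 without KO arrays 1 and 2. Of 31 other Mediator genes, 12 were higher and 19 lower. At an unadjusted p under 0.05, 2 were lower, where 3.32% of all clusters were. The smallest p belonged to Med11 (difference -0.49, SE 0.201) and Med12l (-0.74, SE 0.319, and -0.32 without KO arrays 1 and 2). Med12l was dim, at a mean of 4.63. Of 28 further coregulators, 13 were higher and 15 lower, with a median of -0.0022. Ncoa7 and Ncoa5 had the smallest p among them, with differences of 0.47 (SE 0.222) and -0.27 (SE 0.154), the first at a dim mean of 4.09.

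Nuclear receptors outside the chosen members were higher in 9 and lower in 4 of 13 measured, with 0 at an unadjusted p under 0.05. Of all clusters 49.6% were higher, and 9 of the 13 averaged below 5. Nr4a1, an immediate early orphan receptor, read 7.05 and 7.15 in KO arrays 1 and 2 and 4.25 to 4.43 in the other KO arrays, against 3.73 to 4.83 in WT arrays. Its difference was 1.30 (SE 0.72), or 0.19 without the pair. Hnf4g was near the floor, with a mean of 2.00 and a difference of 0.36 (SE 0.175).

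The SD among KO arrays was above that among WT arrays in 26 of 37 members (70.3%) and in 62.0% of all clusters, and the SD of 3 arrays is itself imprecise. KO arrays 1 and 2 lay together above all other 6 arrays in 3 members (Ncoa2, Esr1 and Rxrb), where 5.57% of all clusters did so, and below them in 5 (Nr1i3, Nr1h4, Nr1h3, Nr2f6 and Nr2f2), where 5.77% did so. Together these were 8 of 37 members, against 11.3% of all clusters. This pattern was looked for after the arrays were seen to stand apart, and what set these livers apart was not tested.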

How the data were processed

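Liver RNA of 5 KO and 3 WT mice was measured on 8 Mouse Gene 2.0 ST arrays, from 200 ng of total RNA each, per the labels' protocols. The authors deposited log2 expression values for 41345 transcript clusters, from 0.409 to 13.3. Per the submitters' processing notes RMA and oligo were used, and the series' design text names Expression Console. For versions, settings and filters the sources used here give nothing, and no slide or scan date was used, so no batch could be tested. The log2 scale was inferred from the deposited values themselves. RMA as commonly run compresses the differences of dim clusters.

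Gene symbols came from the annotation of the array platform: 23521 carry 1 symbol, 1814 carry several and 16010 are unnamed here. KO minus WT was fitted over the 23521 clusters with limma 3.58.1 in R 4.3.3 (lmFit and eBayes, no covariates, two-sided), with Benjamini-Hochberg adjustment and a threshold of 0.05. Abhd15 was also compared by an exact permutation test over 56 splits. The fit was run on simulated data with known changes as a check of the code only, and no simulated arrays were set apart as KO arrays 1 and 2 were. Array medians were 2.99 to 3.05, and precision is limited by how many arrays there were. The members, roles, target lists and marker lists were chosen with earlier results of these data known. Values in every array are given for members at an unadjusted p under 0.05 or with groups apart, the 5 largest differences each way, the 5 largest KO SDs, and the 5 brightest receptors and 3 brightest coregulators. For each target list the 2 genes with the smallest p are named. Marker lists for cholangiocytes, macrophages, blood cells, pancreas and muscle were computed as well. The alternatives tried are given in the closing section.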

Additional observations from a re-analysis of the deposited data

Results flagged for a closer look

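Among the 5 KO arrays, 1 array lay far from the other 4 in 2 of the 37 members. Ncoa3 read 7.025 in KO array 4, against 7.22 to 7.26 in the other KO arrays. Vdr, a dim cluster, read 1.283 in KO array 5, against 1.85 to 2.01 in the others. The rule used for this is set to flag about 1 in 20 groups by chance. Its share over all clusters is not given here, and groups of 3 arrays were not examined.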

How the results depend on the processing

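No member passed an adjusted p of 0.05 in limma under any alternative (smallest 0.5641), although members at an unadjusted p under 0.05 did occur. Clusters called were 0 of 23521, but 3 with all 41345 clusters, 1 of 7699 with a mean of at least 5, 3 with trend and robust settings and 1 with the replicate number as a block. Members at an unadjusted p under 0.05 numbered 1, but 0 with all clusters or quantile normalization, 2 with array weights (Nr1h4 and Nr2f2) and 3 with the replicate block (Nr1h4, Nr1i3 and Pgr). The 1 member was Nr2f2, but Nr1h4 with trend and robust settings, Nr1h4 with a mean of at least 5 (a filter that Nr2f2 did not pass) and Nr0b2 without KO arrays 1 and 2. Leaving out 1 array gave 0 (without WT array 3) to 2 (without KO array 5), and Nr2f2 was among them only without KO array 3 or KO array 5. Members with groups apart numbered 0, but 1 after quantile normalization (Vdr), 2 without KO arrays 1 and 2 (Nr0b2 and Vdr) and 0 to 3 leaving out 1 array, with 3 (Nr1h4, Nr2c1 and Vdr) without WT array 2. Fewer arrays part more easily: of all clusters 4.43% had groups apart with 8 arrays, 11.6% without KO arrays 1 and 2, 9.89% to 10.53% without 1 WT array and 6.38% to 8.31% without 1 KO array. The replicate numbers are not known to pair animals: deviations of same-numbered KO and WT arrays correlated at -0.0477, 0.0157 and 0.0212 across clusters. For Abhd15 the exact two-sided permutation p was 0.1 without KO arrays 1 and 2 (difference -0.50), the smallest that 20 splits allow, and 0.1607 for its dimmer cluster (-0.68). The permutation was not run for the alternatives that change only the model.

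The sign of the difference turned at least once in 17 members, and the cause was not tested. After quantile normalization Esrra read 0.0182 and Rarg 0.0090. With array weights Nr2f1 read 0.0077. With the replicate block Nrip1 read 0.0423, Rarb -0.208 and Nr2f1 0.0597. Without KO arrays 1 and 2 Rxra read -0.0200, Ncoa2 -0.0403, Thrb -0.0290, Esr1 -0.154, Nr2f6 0.0330, Rxrb -0.1587, Esrra 0.0693, Esrrg 0.0753 and Rarg 0.0993. Leaving out 1 array, the difference ranged from -0.1544 to 0.2155 in Esr1, -0.1958 to 0.1697 in Esrra, -0.3273 to 0.0487 in Esrrb, -0.2901 to 0.1439 in Esrrg, -0.0406 to 0.1604 in Nr2c2, -0.1558 to 0.1267 in Nr2f1, -0.0959 to 0.0971 in Nr5a2, -0.0035 to 0.2493 in Nr6a1, -0.2214 to 0.0476 in Nrip1, -0.0785 to 0.1365 in Ppara, -0.0822 to 0.2011 in Rarb, -0.1463 to 0.1942 in Rarg and -0.0277 to 0.0348 in Rxra. The other 20 members kept their sign under all alternatives run.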

Other observations

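Macrophage markers, 7 of 7 measured, had list means of 5.76 to 6.93 in KO arrays and 5.86 to 6.33 in WT arrays, with 6 higher and 1 lower in the KO mean. Cholangiocyte markers (5 of 6 measured) lay at 3.55 to 3.74 in KO arrays and 3.45 to 3.78 in WT arrays. B cell (3 of 4 measured), T and NK cell (5 of 5), neutrophil (4 of 4), erythroid (1 of 5), exocrine pancreas (3 of 4) and skeletal muscle (4 of 4) markers all averaged below 5. Lyve1, a sinusoidal endothelial marker named after its values were seen, had a difference of 0.65, with each KO array above each WT array, and 0.53 without KO arrays 1 and 2. Of the 8 markers on its list 5 were lower, with a median of -0.039 and the most negative difference, -0.26, in Clec4g.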
